A study of Mus musculus with 15 samples.

Results

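The genes described here encode the proteins of the cytosolic ribosome. They were taken by symbol, as Rpl or Rps followed by a number with an optional a, x or l ending, together with Rpsa and Rplp0 to Rplp2, and had to lie on a probe set that names 1 gene. This gave 58 of the 19938 genes tested, 37 of the large (60S) subunit and 21 of the small (40S) subunit. Another 16 symbols met the naming rule but lie only on probe sets that name several genes, and are not analysed here (Rpl11, Rpl13a, Rpl15, Rpl17, Rpl3, Rpl31, Rpl32, Rpl35, Rpl35a, Rpl37, Rpl39, Rps16, Rps23, Rps24, Rps26 and Rps27). Of the 58, the RefSeq table lists Rps4l as a transcribed pseudogene.

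RNA was measured on 15 Affymetrix mouse gene arrays from cultured cardiac colony-forming unit fibroblasts (cCFU-F), stromal cells of the heart that grow as colonies, sorted as SCA1+PDGFRα+CD31- from C57BL/6 mice of 12 weeks labelled male. There were 5 groups of 3 arrays: large colonies without treatment at passage 5 (large P5) and at passage 15 (large P15), small colonies without treatment at passage 5 (small P5), and small colonies given the growth factor PDGF-AB at 50 ng/ml at passage 5 (treated small P5) and at passage 15 (treated small P15). The treatment text also names AG1296, an inhibitor of PDGF receptors, but no array is labelled with it. Nothing in the labels tells separate cultures or animals apart within a group, so each p-value reflects the spread among these arrays and that spread may be technical. No untreated small colonies at passage 15 are among the arrays, so at passage 15 colony size and PDGF-AB cannot be told apart.

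A ribosome joins a small subunit, which reads the mRNA, to a large subunit, which makes the peptide bond. Ribosomal protein genes are among the most strongly transcribed genes of growing cells, and MYC, a transcription factor that drives growth, is known to raise them and the factors that assemble ribosomes. Their mRNAs begin with a run of pyrimidines at the 5′ end, the TOP motif, through which mTORC1 signalling and the RNA-binding protein LARP1 control their translation. Transcript levels on an array therefore say nothing of how much of each mRNA is translated.

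Values are log2 intensities, so a difference of 1 is a doubling, and levels of different probe sets cannot be set against each other. The deposited arrays had medians between 5.59 and 5.72 over all probe sets, and arrays of the same group correlated at 0.997 to 0.998, against 0.958 to 0.991 between groups. Of 7 stromal genes, Vim, Pdgfrb, Ddr2, Col1a1 and Col1a2 lay between 9.83 and 12.8 on all arrays. Pdgfra, whose protein was used in the sort, had means of 8.84 in large P15 and 6.28 to 6.66 in the other groups, and Thy1 had means of 10.3 and 10.6 in the large colony groups and 5.11 to 5.49 in the small colony groups. Against an array lower quartile of 4.06 to 4.23 and a median over genes of 6.00, the 5 endothelial genes lay between 3.30 (Emcn) and 5.25 (Cdh5). Of the leukocyte genes Ptprc and Adgre1 lay between 3.15 and 4.18, and Csf1r, Cd68 and Cd14 between 5.25 and 7.26. Of the cardiomyocyte genes Myl2, Ryr2 and Myh6 lay between 4.33 and 5.2, Actc1 between 6.93 and 7.62 and Tnnt2 between 7.29 and 10.44. The log2 of the summed intensity of 5 cardiomyocyte markers lay between 8.57 and 8.60 in large P15, 8.84 and 8.98 in large P5, 9.62 and 9.67 in treated small P15, 9.93 and 9.94 in small P5, and 10.6 and 10.7 in treated small P5. That of 5 leukocyte markers lay between 7.51 and 7.60 in treated small P15 and reached 8.16 to 8.26 in small P5, and that of 5 endothelial markers lay between 6.56 and 6.99 throughout. The part of these cells or genes in the results below was not tested. Xist, the RNA of the inactive X chromosome, lay between 8.93 and 10.88 and 3 Y-linked genes between 2.24 and 3.40, which goes against the label male.

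Since mRNAs of this family are known for the TOP run, the starts of 7 of the genes are shown. Not all of the 7 have such a run at the annotated start. Each sequence goes from 40 bases before to 20 bases after the annotated start, 5′ to 3′ on the gene's strand (RefSeq, GRCm38.p6). The capitals mark the longest run of C and T that covers the start or lies within 10 bases of it. Rps15a, Rpl13, Rps3 and Rps12 are among the genes that rose most with passage, Rps6 and Rplp2 are the phosphorylated 40S protein and a stalk protein, and Rpl28 rose with passage in large colonies. The start listed for Rps12 lies 174 bases inside the 5′ end of the gene in the RefSeq gene table, while the other 6 starts are at that end.
Rps15a, chr7:118116128-118116187, minus strand: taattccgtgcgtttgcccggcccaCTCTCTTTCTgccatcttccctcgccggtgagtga
Rpl13, chr8:123102310-123102369, plus strand: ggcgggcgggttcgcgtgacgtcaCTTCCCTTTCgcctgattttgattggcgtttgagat
Rps3, chr7:99483690-99483749, minus strand: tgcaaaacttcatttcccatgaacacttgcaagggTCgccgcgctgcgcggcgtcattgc
Rps12, chr10:23787190-23787249, minus strand: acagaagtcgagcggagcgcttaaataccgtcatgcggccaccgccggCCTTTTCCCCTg
Rplp2, chr7:141447611-141447670, plus strand: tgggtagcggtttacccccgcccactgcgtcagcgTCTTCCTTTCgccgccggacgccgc
Rps6, chr4:86857348-86857407, minus strand: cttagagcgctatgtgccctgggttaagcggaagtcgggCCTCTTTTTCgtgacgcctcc
Rpl28, chr7:4792925-4792984, plus strand: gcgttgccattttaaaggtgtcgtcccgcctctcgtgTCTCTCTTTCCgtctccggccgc
The runs of Rps6 (10 bases from position -1), Rplp2 (10 bases from position -5) and Rpl28 (11 bases from position -3) span the annotated start. Those of Rps15a and Rpl13 (10 bases each) end before it, and in both a shorter run that is not marked covers it. That of Rps12 (11 bases) begins at position 9 after it. The run of Rps3 is 2 bases long in this window.

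Promoters were listed for 46 of the 58 genes and for 15614 of all genes tested, over 250 bases before to 50 after the start, and a gene was counted if any listed promoter held the letters. Some listed starts lie well inside the 5′ end of the gene, as for Rpl19 (4707 and 4921 bases), Rps2 (1942) and Rpl38 (762). A pyrimidine run of 8 or more bases that covers the start or reaches within 10 bases of it was counted. It was found for 18 of the 46 (39.13%), against 16% of all genes, and the median of the longest run was 6.5 against 4 bases. The letters CTTTCC on the sense strand within 20 bases of the start were found for 5 of 46 (10.87%; Rpl28, Rpl38, Rpl39l, Rpl4 and Rps10) against 2.24% of all genes. The letters CCGGAAG, the core that ETS factors bind, stood on either strand of 17 promoters (36.96%) against 13.61%, and ATGGCGG, a YY1-like motif, in 6 (13.04%) against 6.39%. TATAAA was in 6 (13.04%) against 13.6% of all genes. These matches describe letters in a window, and no binding was measured.

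The ribosomal protein genes were mostly lowest in large P5 and highest in treated small P15. Large P5 had the lowest mean of the 5 groups for 41 of the 58 genes, and treated small P15 the highest for 43. These are 70.7% and 74.1% of the genes, against 15.2% and 36.3% of all genes tested. The median deviation of the 58 genes from their own mean over the 15 arrays was -0.154, -0.207 and -0.210 on the 3 large P5 arrays and 0.201, 0.190 and 0.222 on the 3 treated small P15 arrays. On the remaining 9 arrays it lay between -0.033 and 0.026, with no overlap between these and either end. Among these, small P5 (-0.0038 to 0.0259) lay slightly above large P15 (-0.0328 to -0.0069) and treated small P5 (-0.0272 to -0.0111). Large P15 and treated small P5 overlapped. The 1092 other genes with a mean level of 10 or more, the level at which 43 of the 58 lie, ran the opposite way: their median deviation was 0.0632 to 0.0721 on the large P5 arrays and -0.107 to -0.0815 on the treated small P15 arrays.

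**Figure D1:**
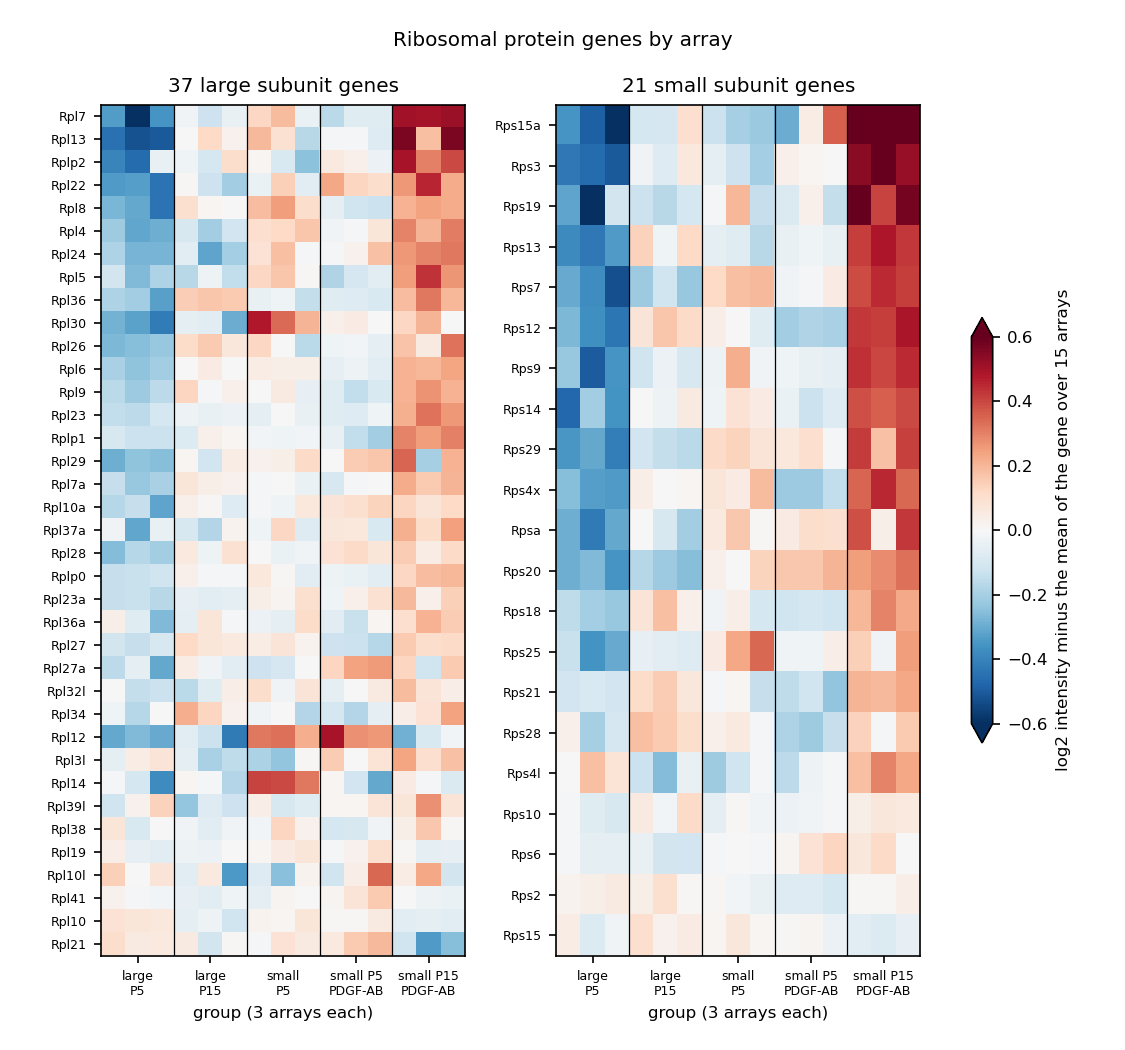
Each row is 1 ribosomal protein gene and each column 1 of the 15 arrays, coloured by log2 intensity minus the mean of the gene over 15 arrays (the scale is cut at -0.6 and 0.6), with genes ordered by the difference between treated small P15 and large P5. Most rows run from blue in large P5 to red in treated small P15, while the means of Rpl21, Rpl10, Rps15, Rpl41, Rpl10l, Rps2 and Rpl19 were no higher in treated small P15 than in large P5.

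**Figure D2:**
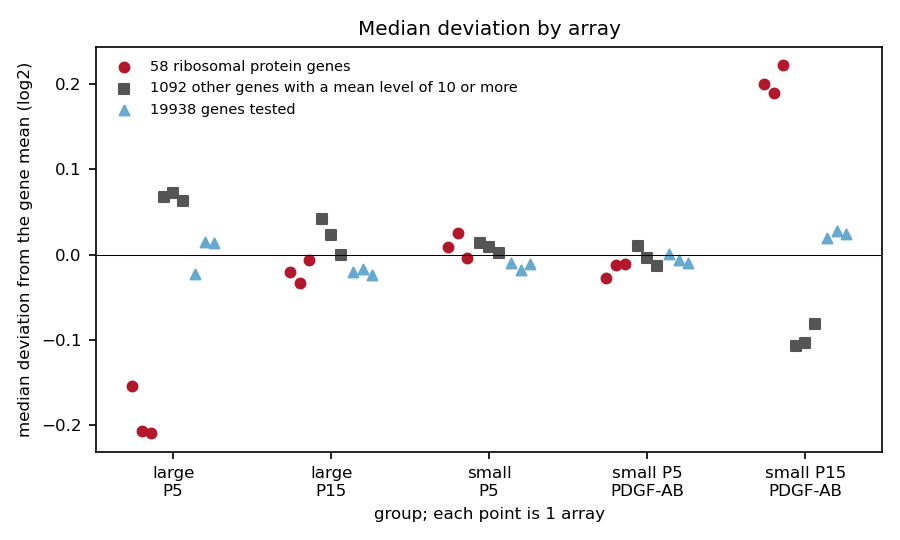
Each point is 1 array, at the median deviation (log2) of a set of genes from their own means over the 15 arrays, for the 58 ribosomal protein genes, 1092 other genes with a mean level of 10 or more and all 19938 genes. The 58 genes lie between -0.210 and -0.154 in large P5 and between 0.190 and 0.222 in treated small P15.

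From passage 5 to passage 15 in untreated large colonies, 26 of the 58 genes rose, 2 fell and 30 were not called. A gene is called changed here when its adjusted p in the limma fit, over all genes tested, was under 0.05. The median change was 0.195, while 17.4% of all genes rose and 18.7% fell with a median of -0.042. The rises were 13 of 21 genes of the small subunit (median 0.218) and 13 of 37 of the large subunit (median 0.131). No change reached 2-fold. The genes named below as largest rises or falls between groups, here and later, were picked from called genes whose arrays did not overlap. Their lack of overlap follows from that choice and is no finding.

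Rpl13, a protein of the large subunit, had the largest rise. It was at 9.16, 9.09 and 9.11 in large P5 and at 9.61, 9.73 and 9.64 in large P15, a change of 0.54 (SE 0.0982, adjusted p = 2.89e-04), or 1.45-fold. The 3 arrays of each group were apart, as the way of picking genes required. Rps12, on the head of the small subunit, was at 10.50, 10.40 and 10.33 at passage 5 and at 10.84, 10.93 and 10.88 at passage 15 (change 0.48, SE 0.0568, adjusted p = 3.82e-06). Rps13 rose from 9.58, 9.54 and 9.63 to 10.10, 9.94 and 10.09 (0.46, SE 0.0579, adjusted p = 6.55e-06). Both genes, picked in that way, separated the passages on every array. Rps15a, also of the small subunit, was at 6.30, 6.16 and 6.03 against 6.54, 6.55 and 6.75 (0.45, SE 0.118, adjusted p = 0.00578). Rps3, which lines the site where mRNA enters the ribosome, was at 9.89, 9.86 and 9.82 against 10.30, 10.25 and 10.38 (0.45, SE 0.0628, adjusted p = 1.93e-05). Rpl7 of the large subunit rose by 0.37 (SE 0.0763, adjusted p = 8.94e-04).

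Rps4l and Rpl10 were the 2 that fell. Rps4l, a copy of Rps4x, was at 5.85, 6.03 and 5.93 in large P5 and at 5.72, 5.59 and 5.80 in large P15 (-0.23, SE 0.0737, adjusted p = 0.0204). Its 2 probe sets disagreed in sign, and with their mean the change was not called (adjusted p = 0.287). Rpl10, which joins the large subunit late in its assembly, was at 12.75, 12.73 and 12.72 against 12.61, 12.63 and 12.54 (-0.14, SE 0.0491, adjusted p = 0.0317), a small difference. With cyclic loess between arrays it was not called (adjusted p = 0.425), nor with the compared arrays alone (0.0995). The call of Rpl10 was lost too without any of the large P5 arrays or without large P15 array 1 or 3 (adjusted p 0.0523 to 0.120). Rps4l was lost without large P5 array 2 (0.0975) or large P15 array 2 (0.106).

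At passage 5 without treatment, 33 of the 58 genes were lower in large than in small colonies. In these bulk samples fewer cells of a type and less RNA per cell cannot be told apart. Rps4l alone was higher, 24 were not called, and the median difference was -0.193. Of all genes 18.0% were lower and 18.2% higher, with a median of 0.031. The small subunit gave 13 of 21 lower (median -0.336) and the large subunit 20 of 37 (median -0.170). This comparison shares the large P5 arrays with that of passage in large colonies.

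Rpl30, a small RNA-binding protein of the large subunit, differed most. It was at 6.68, 6.64 and 6.55 in large P5 and at 7.45, 7.31 and 7.17 in small P5, a difference of -0.68 (SE 0.0812, adjusted p = 3.58e-06), or 1.61-fold. By the way it was picked, all 3 large colony arrays were below the small colony arrays. Rpl30 is read by 1 probe set that names it alone and by 10 that name several genes, which were not used. Rpl12, at the base of the stalk that recruits translation factors, was at 6.51, 6.55 and 6.51 against 7.13, 7.15 and 7.03 (-0.58, SE 0.0925, adjusted p = 8.31e-05). Rps7 of the small subunit was at 10.85, 10.77 and 10.62 against 11.27, 11.33 and 11.34 (-0.57, SE 0.0618, adjusted p = 1.29e-06). Rpl14 was at 7.54, 7.44 and 7.17 against 7.96, 7.95 and 7.87 (-0.54, SE 0.0941, adjusted p = 2.16e-04). None of these 3 overlapped between groups, by the way they were picked. Rps4l was 0.20 higher in large colonies (SE 0.0737, adjusted p = 0.0413), with its 2 probe sets again of opposite sign (adjusted p = 0.949 with their mean). That call was also lost without large P5 array 2 or 3 or small P5 array 1 or 2 (adjusted p 0.0837 to 0.172). The same held with cyclic loess (0.055), with trend and robust moderation (0.0576) and with the compared arrays alone (0.0745).

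Few of these genes passed the test for PDGF-AB in small colonies at passage 5. Treated small P5 was higher than small P5 in 2 of the 58 and lower in 8, against 10.7% and 18.2% of all genes, so the share that fell was near the background. The median change was -0.029, against 0.016 over all genes, and turned to 0.00283 when the arrays were centred on their medians. The 8 that fell were Rpl14, Rpl30, Rps4x, Rpl8, Rpl5, Rps28, Rpl27 and Rps12, by 0.18 to 0.51. With centred arrays the calls were 4 higher and 5 lower. Without small P5 array 2 the calls numbered 6, 1 higher and 5 lower, and with trend and robust variance moderation 20, 5 higher and 15 lower.

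Rpl14 fell most with PDGF-AB, from 7.96, 7.95 and 7.87 to 7.56, 7.44 and 7.24 (-0.51, SE 0.0941, adjusted p = 6.15e-04). Rpl30 fell from 7.45, 7.31 and 7.17 to 7.0, 7.02 and 6.97 (-0.31, SE 0.0812, adjusted p = 0.00768). Rps4x, the X-linked small subunit protein, fell from 11.14, 11.12 and 11.26 to 10.85, 10.85 and 10.92 (-0.30, SE 0.0566, adjusted p = 7.70e-04). By the way these 3 genes were picked, the treated arrays lay below the untreated ones in each. Rpl8, close to the peptide-bond centre, fell by 0.28 (SE 0.0599, adjusted p = 0.00191). Rpl27a rose from 10.85, 10.88 and 10.98 to 11.11, 11.22 and 11.24 (0.28, SE 0.0793, adjusted p = 0.0125). Rpl3l, the paralog of Rpl3 used in striated muscle, rose by 0.22 (SE 0.0719, adjusted p = 0.0295) at a level near the arrays' lower quartile, and its arrays overlapped. The call was lost without small P5 array 1 or 2 or treated small P5 array 1 or 3 (adjusted p 0.0724 to 0.138). It was lost too with cyclic loess (0.117), with trend and robust moderation (0.0531) and with the compared arrays alone (0.0682).

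Over passage in PDGF-AB-treated small colonies the genes again mostly rose. From treated small P5 to treated small P15, 32 of the 58 rose and 2 fell, with a median change of 0.222, against 24.6% higher, 21.4% lower and a median of 0.051 over all genes. The small subunit rose in 14 of 21 genes with none lower (median 0.355), and the large subunit in 18 of 37 with 2 lower (median 0.179). At an unadjusted p under 0.05 limma gave 16 small subunit genes higher and 0 lower. The arrays of the 2 passages did not overlap for 42 of the 58, while this held for 54.9% of all genes.

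Rps12 went from 10.55, 10.58 and 10.57 to 11.19, 11.18 and 11.26 (0.64, SE 0.0568, adjusted p = 7.88e-08), or 1.56-fold. Rps15a went from 6.35, 6.69 and 7.01, a wide spread, to 7.34, 7.31 and 7.31 (0.64, SE 0.118, adjusted p = 2.85e-04). Rpl7 went from 10.19, 10.28 and 10.28 to 10.86, 10.85 and 10.87 (0.61, SE 0.0763, adjusted p = 4.55e-06). By the way these genes were picked, all passage 15 arrays lay above all passage 5 arrays in each. Rps19, on the head of the small subunit and the first gene tied to Diamond-Blackfan anaemia, went from 10.27, 10.38 and 10.21 to 10.95, 10.76 and 10.93 (0.59, SE 0.106, adjusted p = 1.86e-04). Rps3 rose by 0.58 (SE 0.0628, adjusted p = 9.64e-07) and Rps4x by 0.57 (SE 0.0566, adjusted p = 2.81e-07).

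Rpl12 and Rpl21 went down over the same passages. Rpl12 fell from 7.31, 7.09 and 7.08 to 6.53, 6.72 and 6.80 (-0.47, SE 0.0925, adjusted p = 4.43e-04). Rpl21 fell from 12.56, 12.66 and 12.70 to 12.38, 12.16 and 12.25 (-0.37, SE 0.0656, adjusted p = 1.62e-04). The arrays of the 2 passages were apart in both, as the way of picking genes required. Rpl12 is read by 1 probe set that names it alone and by 8 that name several genes, which were not used. Rps19 (1 and 3) and Rps15a (1 and 2) are limited in the same way. For Rpl21, 9 probe sets name it alone and 32 name several genes.

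Passage in large colonies and passage in treated small colonies share no array. Of the genes that rose, 22 rose in both: Rpl13, Rpl26, Rpl27, Rpl36, Rpl6, Rpl7, Rpl7a, Rpl8, Rpl9, Rplp2, Rps12, Rps13, Rps14, Rps15a, Rps18, Rps21, Rps28, Rps29, Rps3, Rps4x, Rps7 and Rps9. They are 84.6% of the 26 that rose in large colonies and 68.8% of the 32 that rose in treated small colonies. The 1962 of all genes that rose in both are 56.4% and 40% of those that rose in each. These shares also depend on how many genes rose in each line. In large and treated small colonies these were 44.8% and 55.2% of the 58 genes, against 17.4% and 24.6% of all genes. The 4 that were called in large colonies alone were Rpl10a, Rpl22, Rpl28 and Rpsa, and 10 were called in treated small colonies alone, Rplp0, Rplp1, Rpl5 and Rps19 among them. Rpsa was also called in treated small colonies with cyclic loess (adjusted p = 0.0167), with dim genes left out (0.046), with the mean of its probe sets (2.58e-05) and without treated small P15 array 2 (0.00208), and Rplp0 in large colonies with cyclic loess (0.00152), with dim genes left out (0.0178) and with trend and robust moderation (0.00143). A call in 1 line alone does not show that the lines differ, which the test of the difference addresses.

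**Figure D3:**
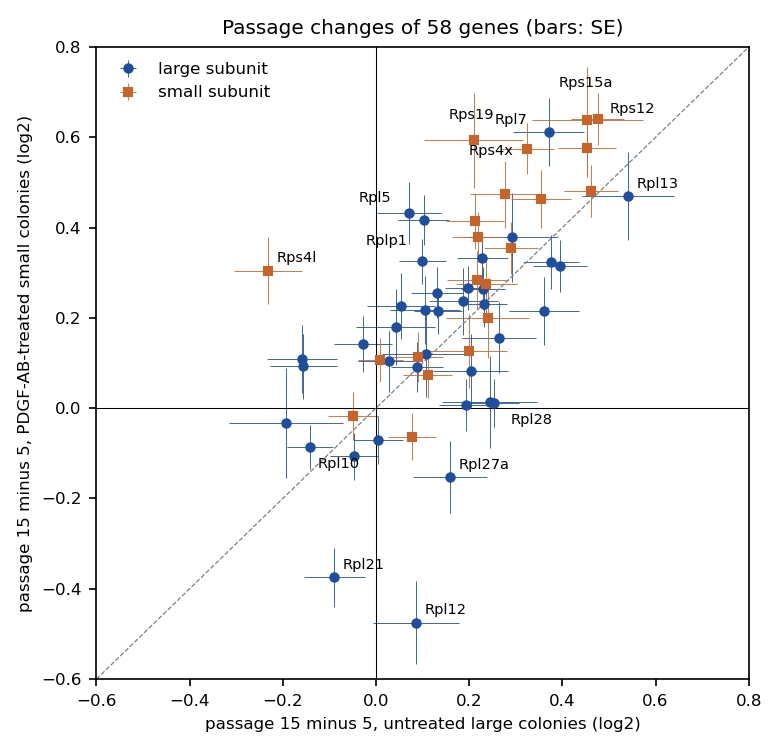
Each point is 1 of the 58 genes, at its change from passage 5 to 15 in untreated large colonies (x axis, log2) and in PDGF-AB-treated small colonies (y axis, log2), with bars for the SE and a dashed line where both are equal. Most points lie in the upper right, with Rpl13 at 0.54 and 0.47, while Rpl12 (0.09 and -0.47) and Rps4l (-0.23 and 0.30) lie far from the line.

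The difference between the 2 passage changes was called for 9 of the 58 genes, 5 with the greater change in treated small colonies and 4 with the lesser, against 18.6% and 15.9% of all genes. The median difference was 0.066, near the 0.073 of all genes. The largest were those of Rpl12 (-0.56, SE 0.131, adjusted p = 0.00344) and Rps4l (0.54, SE 0.104, adjusted p = 8.13e-04). Rpl5, the partner of the 5S rRNA that also binds MDM2, rose by 0.43 in treated small colonies (adjusted p = 6.16e-05) and changed by 0.07 in large colonies (adjusted p = 0.477), a difference of 0.36 (adjusted p = 0.00885). Rplp1 changed by 0.42 and 0.10 (difference 0.32, adjusted p = 0.00521). The count fell to 4 without treated small P5 array 2 and to 5 without treated small P15 array 2, and was 15 with trend and robust variance moderation. With cyclic loess the split was 7 and 3.

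Treated small colonies were also compared with untreated large colonies at each passage, which differ in colony size and PDGF-AB together and share their arrays with the comparisons above. At passage 5, 29 of the 58 were higher in treated small P5 than in large P5, none was lower and 29 were not called (median 0.154), against 14.8% higher and 20.9% lower of all genes (median -0.005). At an unadjusted p under 0.05 limma gave 31 higher and 1 lower, Rps2. At passage 15, 35 were higher and 1, Rpl21, lower (median 0.185), against 29.2% and 24.2% of all genes (median 0.069). The share of all genes called in either direction was 53.4% there. The arrays did not overlap for 39 of the 58 at passage 5 and 43 at passage 15, against 43.9% and 60.7% of all genes. By subunit, 11 of 21 small subunit genes (median 0.262) and 18 of 37 large subunit genes (median 0.139) were higher at passage 5, and 15 of 21 (median 0.364) and 20 of 37 (median 0.167) at passage 15.

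At passage 5 the widest differences were in Rpl12 (0.63, SE 0.0925, adjusted p = 3.48e-05), Rpl22 (0.53, SE 0.0786, adjusted p = 4.40e-05), Rps15a (0.52, SE 0.118, adjusted p = 0.00202) and Rps3 (0.48, SE 0.0628, adjusted p = 1.13e-05). Rpl22, a large subunit protein known for a role in T cell development, was at 7.55, 7.56 and 7.44 in large P5 and at 8.12, 8.02 and 8.00 in treated small P5. At passage 15 Rps15a led with 0.71 (SE 0.118, adjusted p = 1.15e-04), or 1.63-fold. Rps19 followed with 0.66 (SE 0.106, adjusted p = 7.38e-05), Rps7 with 0.61 (SE 0.0618, adjusted p = 4.95e-07) and Rps3 with 0.60 (SE 0.0628, adjusted p = 6.76e-07). Rps7 was at 10.93, 11.03 and 10.92 in large P15 and at 11.54, 11.60 and 11.56 in treated small P15. Rpl21 was 0.22 lower (SE 0.0656, adjusted p = 0.0103). That call was lost with the mean of its probe sets (adjusted p = 0.269), with cyclic loess (0.114) and without treated small P15 array 2 (0.0549).

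**Figure D4:**
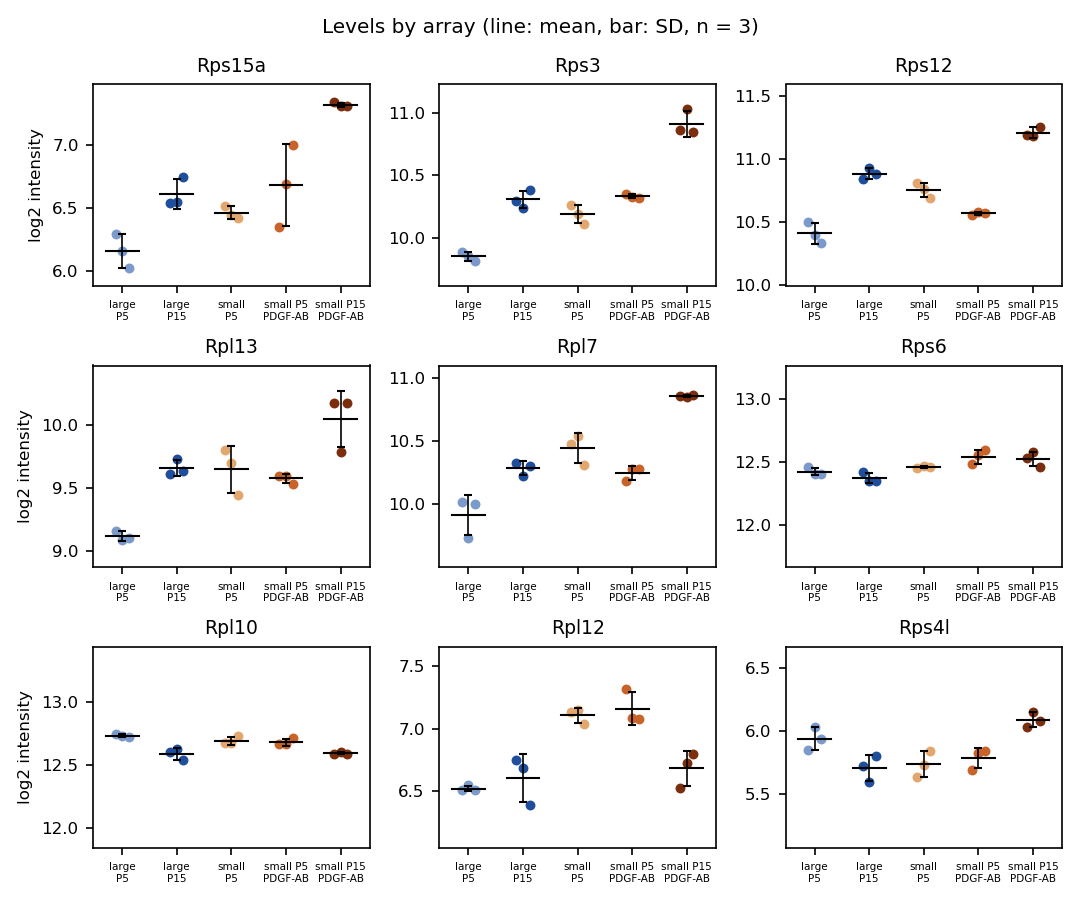
Log2 intensity of 9 of the genes on each of the 15 arrays, with the line at the mean and the bar for the SD of 3 arrays. All panels span the same 1.6 log2 units, so the changes of Rps15a, Rps3, Rps12, Rpl13 and Rpl7 can be set beside the narrow ranges of Rps6 and Rpl10, while the levels themselves cannot be compared between genes.

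Proteins of the 40S head, which holds the decoding site with the body, were measured in 10 of 14 listed genes. With passage, 5 of the 10 rose in large colonies (median 0.214) and 6 in treated small colonies (median 0.280), with none lower in either (7 and 6 higher and 0 lower at an unadjusted p under 0.05 in limma). In the comparison of large with small P5, 7 of the 10 were lower (median -0.341). Of all genes 17.4% and 24.6% rose with passage in the 2 lines, and 18.0% were lower in large P5. Rps10 and Rps15 of this group were called in no comparison. Rpsa, a small subunit protein also known as the laminin receptor precursor, was at 10.79, 10.66 and 10.78 in large P5, 11.09, 10.99 and 10.88 in large P15, and 11.14, 11.24 and 11.09 in small P5. It was 0.42 lower in large P5 than in small P5 (SE 0.0889, adjusted p = 0.00130). Its rise with passage in large colonies was 0.24 (SE 0.0889, adjusted p = 0.0452), which was lost with centred arrays (adjusted p = 0.0995) and without any of the large P5 arrays or without large P15 array 1 or 2 (adjusted p 0.0544 to 0.177).

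The P stalk of the large subunit, made of Rplp0, Rplp1 and Rplp2 on a base with Rpl12, contacts the GTPase factors of translation. Rplp0 was at 12.56, 12.56 and 12.57 in large P5, 12.72, 12.68 and 12.69 in large P15, 12.76, 12.70 and 12.63 in small P5, 12.66, 12.66 and 12.63 in treated small P5, and 12.82, 12.88 and 12.90 in treated small P15. Its group means spanned 0.301, with large P5 lowest and treated small P15 highest. The rise of Rplp0 in treated small colonies (0.21, SE 0.0512, adjusted p = 0.00242) came from arrays that did not overlap. Rplp1 went from 12.31, 12.21 and 12.15 to 12.66, 12.61 and 12.66 in treated small colonies (0.42, SE 0.0551, adjusted p = 8.49e-06). Rplp2 rose there from 5.53, 5.5 and 5.43 to 5.96, 5.77 and 5.86 (0.38, SE 0.0984, adjusted p = 0.00465). Its only probe set lay below the median of all genes, 6.00, which says nothing of the mRNA's abundance beside that of Rplp0 and Rplp1. Rplp2 also rose in large colonies (0.29, SE 0.0984, adjusted p = 0.0279) but its arrays overlapped. The call was lost with centred arrays (adjusted p = 0.0645) and with the compared arrays alone (0.0766). It was lost too without large P5 array 1 or 2 or large P15 array 1 or 3 (adjusted p 0.0563 to 0.143). At the base, the means of Rpl12 were 6.52 in large P5, 6.61 in large P15, 7.10 in small P5, 7.16 in treated small P5 and 6.68 in treated small P15.

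Rpl5 carries the 5S rRNA into the large subunit together with Rpl11, and the pair can hold back MDM2, the inhibitor of p53. Rpl5 was at 11.08, 10.93 and 11.01 in large P5, 11.02, 11.16 and 11.04 in large P15, 11.31, 11.36 and 11.20 in small P5, 11.01, 11.09 and 11.12 in treated small P5, and 11.44, 11.62 and 11.45 in treated small P15. Small P5 and treated small P15 were thus the high groups. Its fall with PDGF-AB (-0.21, SE 0.0688, adjusted p = 0.0271) was lost with centred arrays (adjusted p = 0.0688) and without small P5 array 1 or 2 or treated small P5 array 1 or 2 (adjusted p 0.0579 to 0.112). Mdm2 itself fell with passage by 0.42 in large colonies (SE 0.0546, adjusted p = 9.15e-06) and by 0.58 in treated small colonies (SE 0.0546, adjusted p = 1.73e-07). Of all genes 18.7% and 21.4% fell there. Of the 2 tested genes listed for p53 and MDM2, the other was not called in large colonies (-0.11) and rose in treated small colonies (0.23). Any link of these changes to Rpl5 was not tested.

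Genes in which mutations are known to cause Diamond-Blackfan anaemia, an inherited failure of red cell production, were measured in 10 of 20 listed: with passage 6 rose in large colonies (median 0.211) and 8 in treated small colonies (median 0.280), with none lower, against 17.4% and 24.6% of all genes that rose. In large P5 against small P5, 7 were lower (median -0.295) and none higher, against 18.0% of all genes that were lower. At an unadjusted p under 0.05 limma gave 7 and 8 higher and 0 lower with passage, and 8 lower and 0 higher in large P5.

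The 4 paralogs of restricted expression had mean levels below the median of all genes. Rpl3l, of striated muscle, lay between 4.12 and 4.60 on the 15 arrays, and Rpl39l, best known from testis, between 2.71 and 3.21, below the arrays' lower quartile. Rpl10l, a retrocopy of Rpl10 that works in the testis, lay between 5.19 and 5.88 and was called in no comparison. With passage in large colonies none of the 4 rose, and Rps4l fell. At an unadjusted p under 0.05 limma gave 0 higher and 2 lower, Rpl3l and Rps4l. Of all genes 17.4% rose and 18.7% fell. In treated small P15 against large P15, Rpl3l (0.31, SE 0.0719, adjusted p = 0.00213), Rpl39l (0.28, SE 0.0757, adjusted p = 0.00506) and Rps4l (0.38, SE 0.0737, adjusted p = 4.28e-04) were higher, as were 29.2% of all genes. Of these the call of Rpl3l was lost with cyclic loess between arrays (adjusted p = 0.128).

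Some of the genes hardly moved. Rpl10l, Rpl19, Rpl38, Rpl41, Rps10, Rps15 and Rps2 were called in none of the 7 comparisons, and 15 genes were called in 5 or more. The comparisons share arrays, and these counts were not set against the same counts over all genes tested. They therefore do not show whether the family differs from other genes in this. Among the 13 genes with a mean level of 12 or more, the range of the 5 group means ran from 0.0785 to 0.417 (median 0.168). Among the 45 below that level it ran from 0.142 to 1.16 (median 0.503), with Rps15a at the top. With passage 4 of the 13 and 24 of the 45 were called in large colonies, and 4 and 30 in treated small colonies, against 36.1% and 46.0% of all genes called in either direction. Whether bright probe sets respond less on these arrays was not tested. Rps6, the protein that S6 kinase phosphorylates, was among the 13: its group means were 12.43, 12.38, 12.46, 12.54 and 12.53 in the order large P5, large P15, small P5, treated small P5 and treated small P15. It was called in 1 comparison, 0.15 higher in treated small P15 than in large P15 (SE 0.053, adjusted p = 0.0255). That call was lost without large P15 array 2 or 3 or treated small P15 array 1 or 2 (adjusted p 0.0602 to 0.0922). It was lost too with the compared arrays alone (0.0665).

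Ribosomal protein genes have many processed copies in the genome, and probes can be shared with near-identical copies, so each gene's value is uncertain to that degree. For 39 of the 58 more than 1 probe set named the gene alone, 214 probe sets in all for the 58 genes, and that with the highest mean was used. Among called genes with several probe sets, all probe sets had the same sign in 21 of 22 genes for passage in large colonies, 22 of 23 for large against small P5, 6 of 6 for PDGF-AB, 25 of 25 for passage in treated small colonies, and 18 of 18 and 21 of 23 for treated small against large colonies at passages 5 and 15. The exceptions were Rps4l in the first 2 comparisons and Rpl21 and Rpl7a in the last. The 10 genes with no more than 1 probe set of any kind were Rpl10l, Rpl14, Rpl22, Rpl39l, Rpl3l, Rpl4, Rpl8, Rplp2, Rps20 and Rps3. Of these 4 rose with passage in large colonies (median 0.119) and 4 in treated small colonies (median 0.138), against 17.4% and 24.6% of all genes, and 6 were lower in large P5 than in small P5 (median -0.347), against 18.0%.

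Other genes that build and run ribosomes were counted from lists drawn up for this purpose. The shares of all genes called higher and lower, against which these counts stand, were 17.4% and 18.7% for passage in large colonies, 24.6% and 21.4% for passage in treated small colonies, 18.2% and 18.0% for large against small P5, and 10.7% and 18.2% for PDGF-AB. Of the ribosomal protein genes that the naming rule leaves out, 4 were tested. Fau rose with passage by 0.26 in large (SE 0.0562, adjusted p = 0.00138) and 0.28 in treated small colonies (SE 0.0562, adjusted p = 6.17e-04), and Rps3a1 was 0.55 lower in large P5 than in small P5 (-0.55, SE 0.0976, adjusted p = 2.24e-04). Rps27l rose by 0.23 with passage in large colonies (SE 0.0628, adjusted p = 0.00752). Rpl7l1 was 0.19 higher in large P5 than in small P5 (SE 0.0572, adjusted p = 0.0144) and lower by 0.44 in treated small P5 than in large P5 (-0.44, adjusted p = 1.08e-05). Of 77 mitochondrial ribosomal protein genes, whose products serve the separate ribosome of mitochondria, 30 rose and 5 fell with passage in large colonies (median 0.146) and 36 rose and 8 fell in treated small colonies (median 0.185). Between large and small P5 they split, 12 higher and 11 lower (median 0.003). With PDGF-AB 2 rose and 32 fell (median -0.153). Mrpl40 fell by 0.70 with PDGF-AB (SE 0.0809, adjusted p = 6.76e-06) and rose by 0.75 with passage in treated small colonies (SE 0.0809, adjusted p = 8.66e-07), 2 comparisons that share the treated small P5 arrays.

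Ribosome biogenesis factors, which process rRNA and assemble the subunits, mostly fell with PDGF-AB: 34 of 45 fell and 1 rose (median -0.332). With passage 19 rose and 8 fell in large colonies (median 0.146), and 34 rose and 1 fell in treated small colonies (median 0.437). Dkc1, the pseudouridine synthase of the H/ACA particles, had means of 6.61 ± 0.0371 in large P5, 7.79 ± 0.0754 in large P15, 7.31 ± 0.0303 in small P5, 6.42 ± 0.0292 in treated small P5 and 8.27 ± 0.143 in treated small P15 (SD, n = 3). It rose with passage by 1.17 in large colonies (SE 0.0672, adjusted p = 4.72e-10) and by 1.85 in treated small colonies (SE 0.0672, adjusted p = 8.80e-13), and fell by 0.89 with PDGF-AB (SE 0.0672, adjusted p = 4.51e-08). Nop56, of the C/D particles, fell by 0.55 with PDGF-AB (SE 0.062, adjusted p = 4.65e-06). Genes of RNA polymerase I transcription, which makes the rRNA precursor, fell in 8 of 14 with PDGF-AB and rose in 1, and rose in 7 and 9 of 14 with passage in large and treated small colonies, with 2 and 1 lower. Polr1c, a subunit of that polymerase, rose by 0.53 (SE 0.0654, adjusted p = 6.04e-06) and 0.92 (SE 0.0654, adjusted p = 4.94e-09) with passage in the 2 lines.

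Of 29 translation factors, 12 rose and 6 fell with passage in large colonies, 17 rose and 4 fell in treated small colonies, 2 were higher and 14 lower in large P5 than in small P5, and 2 rose and 12 fell with PDGF-AB. Eif3h, a subunit of initiation factor eIF3, rose by 0.42 with passage in large colonies (SE 0.0539, adjusted p = 9.37e-06) and was lower by 0.63 in large P5 than in small P5 (-0.63, SE 0.0539, adjusted p = 6.48e-08). The elongation factor genes Eef1a1 and Eef2 were called in none of the 6 comparisons between groups, with mean levels of 13 and 12.57. Genes of mTORC1 and TOP mRNA control showed no common direction, with 5 of 17 higher and 5 lower for passage in large colonies and 4 and 4 in treated small colonies. Mtor fell by 0.54 with passage in treated small colonies (SE 0.075, adjusted p = 1.52e-05) and changed by 0.05 in large colonies (adjusted p = 0.690). Larp1 rose by 0.34 in treated small colonies (SE 0.0763, adjusted p = 0.00168), and Eif4ebp1, the inhibitor of cap-dependent initiation that mTORC1 switches off, rose there by 0.41 (SE 0.0606, adjusted p = 2.72e-05) and fell by 0.22 in large colonies (SE 0.0606, adjusted p = 0.00887).

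Of 11 genes of the MYC network, 3 rose and 3 fell with passage in large colonies and 4 rose and 2 fell in treated small colonies. Myc itself had means of 8.42 ± 0.112 in large P5, 9.43 ± 0.0955 in large P15, 9.42 ± 0.0674 in small P5, 9.07 ± 0.0801 in treated small P5 and 10.14 ± 0.159 in treated small P15 (SD, n = 3). Large P5 was thus the lowest group and treated small P15 the highest. Myc rose with passage by 1.01 in large (SE 0.0833, adjusted p = 4.68e-08) and 1.07 in treated small colonies (SE 0.0833, adjusted p = 1.59e-08), was lower in large P5 than in small P5 (-1.0, SE 0.0833, adjusted p = 5.25e-08) and fell by 0.35 with PDGF-AB (SE 0.0833, adjusted p = 0.00481). Whether Myc has a part in the levels of the ribosomal protein genes was not tested.

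**Figure D5:**
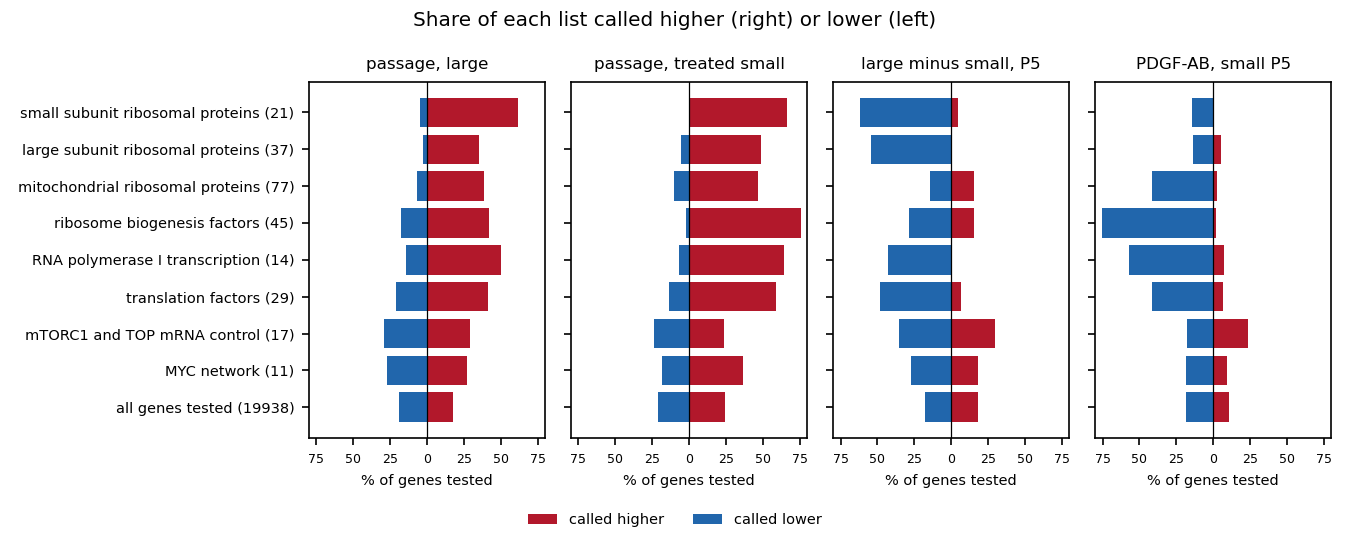
Bars give the percentage of each list's tested genes (number in brackets) called higher, to the right in red, or lower, to the left in blue, in 4 comparisons, with all genes tested at the bottom. With PDGF-AB 34 of 45 biogenesis factors were lower, against 8 of the 58 ribosomal protein genes shown as 2 subunits.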

How the data were processed

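The deposited values are log2 intensities of 28853 probe sets in 15 arrays, on the scale the authors deposited. RMA and limma stand in the submitters' processing notes, without versions. Labels state 100 ng of total RNA per array. Probe sets that name 1 gene were kept (21789 of 23410 listed), that with the highest mean over the 15 arrays where a gene had several, and symbols were updated by gene identifier (GRCm38.p6 RefSeq table; 21698 matched, 91 not). No filter on low values was used, so all 58 genes were tested. A means model over the 5 groups was fitted with limma 3.58.1 in R 4.3.3 (10 residual and 5.804 prior degrees of freedom, median SE 0.0778), with 2-sided moderated tests for 7 comparisons, Benjamini-Hochberg adjustment over 19938 genes and a threshold of 0.05. The pipeline was tested on simulated data.

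The members and all lists were chosen with earlier results of these data known, so no list was tested, and counts are given with the shares of all genes. Genes named are the 4 largest rises and falls among called members whose arrays do not overlap in each comparison (overlap was not considered for the difference of passage changes), the 4 with the widest range of group means, fixed members (Rplp0, Rplp1, Rplp2, Rpsa, Rpl5, Rps6, Rps19 and the 4 paralogs), and from related lists up to 3 called genes with the smallest adjusted p in each comparison plus Myc, Mtor, Larp1 and Eif4ebp1. Mdm2, Fau, Rps3a1, Rps27l, Rpl7l1, Eef1a1 and Eef2 are named as list members as well. Precision is limited by the number of arrays, 3 per group. Alternatives were centring, cyclic loess, a filter at the median level, the mean over probe sets, trend and robust moderation, compared arrays alone, a replicate block, other member lists and leaving out each array.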

Additional observations from a re-analysis of the deposited data

Results flagged for a closer look

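The passage changes of 9 ribosomal protein genes differed between treated small colonies and large colonies by the test of the difference itself (limma, adjusted over all genes), against 34.4% of all genes. Differences are given as the change in treated small colonies minus that in large colonies, on the log2 scale, and their causes were not tested. Rpl12 differed by -0.561 (adjusted p = 0.00344), with changes of -0.475 and 0.0861. Rps4l differed by 0.536 (adjusted p = 8.13e-04), with 0.304 and -0.232, in the probe set used. Rpl5 differed by 0.362 (adjusted p = 0.00885), with 0.433 and 0.0702. Rplp1 differed by 0.315 (adjusted p = 0.00521), with 0.417 and 0.102. Rps4x differed by 0.25 (adjusted p = 0.0238), with 0.575 and 0.325, and Rpl23 by 0.226 (adjusted p = 0.0216), with 0.325 and 0.0991. Rpl28 differed by -0.241 (adjusted p = 0.0218), with 0.0119 and 0.253. Rpl21 differed by -0.285 (adjusted p = 0.0261), with -0.375 and -0.0896, and Rpl27a by -0.312 (adjusted p = 0.0409), with -0.153 and 0.160.

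Calls were lost for Rpl27a with cyclic loess, with compared arrays alone and without large P5 array 1 or 3, large P15 array 1 or 2, treated small P5 array 2 or 3 or treated small P15 array 2 (adjusted p 0.0520 to 0.113), and for Rpl21 with the mean of its probe sets and without large P5 array 2 or 3, large P15 array 1 or 3, treated small P5 array 2 or 3 or treated small P15 array 2 or 3 (adjusted p 0.0501 to 0.149). They were lost by a smaller margin for Rps4x without large P5 array 1, treated small P5 array 2 or treated small P15 array 2 (adjusted p 0.0510 to 0.0579) and for Rpl28 without large P15 array 3, treated small P5 array 2 or treated small P15 array 2 (adjusted p 0.0512 to 0.0517).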

How the results depend on the processing

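No result changed direction past the threshold under any alternative, and of 1762 values of named genes under alternatives 1625 stayed on their side of the threshold, 53 gained a call and 84 lost it. Counts of called genes moved by over 1.5 times with trend and robust moderation, which gave 20 for PDGF-AB and 15 for the difference of passage changes, and without some single arrays for the same 2 comparisons (lowest counts 6 and 4). With all arrays kept, median changes moved by more than the spread between arrays in the following cases. Centred arrays gave 0.146 for passage in large colonies, 0.00283 for PDGF-AB and 0.172 for passage in treated small colonies. They gave 0.177 for treated small against large at passage 5 and 0.207 at passage 15. Cyclic loess gave 0.227 and 0.291 for passage in large and treated small colonies and -0.257 for large against small P5. It gave 0.234 and 0.260 for treated small against large at passages 5 and 15. Leaving out dim genes gave -0.219 for large against small P5. The mean over probe sets gave 0.244 for passage in treated small colonies. Some medians moved that far without a single array too. For passage these reached 0.157 in large colonies without large P5 array 3 and 0.252 in treated small colonies without treated small P15 array 2. Leaving out each array gave 23 to 28 calls (medians 0.157 to 0.210) for passage in large colonies, 27 to 35 (-0.203 to -0.174) for large against small P5, 6 to 12 (-0.0441 to -0.0147) for PDGF-AB, 30 to 34 (0.208 to 0.252) for passage in treated small colonies, 23 to 27 (0.133 to 0.179) and 31 to 34 (0.174 to 0.204) for treated small against large at passages 5 and 15, and 4 to 10 (0.0442 to 0.0757) for the difference. The replicate numbers did not meet the rule for pairing: same-numbered arrays correlated at 0.208, 0.0984 and 0.202 for passage in large colonies, where each of the 6 arrays was closest to its own number (0 to 4 of 6 in other comparisons). With the replicate block the calls were 28, 34, 10, 34, 29, 35 and 8 in the 7 comparisons, and the calls of Rpsa (adjusted p = 0.0514) and Rpl27a (adjusted p = 0.0558) were lost.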
